A study of Mus musculus with 4 samples.

Results

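Metallothioneins are small, cysteine-rich proteins that bind zinc and copper, and they were examined here with their regulator and with transporters that move zinc across membranes. The genes were chosen by symbol: the metallothioneins *Mt1*, *Mt2* and *Mt3*, the regulator *Mtf1*, the exporter *Slc30a1*, and the importers *Slc39a1*, *Slc39a10* and *Slc39a14*. Each symbol occurred once, which gave 8 of the 24347 gene rows. Mouse embryonic stem cells (mESCs) were differentiated as floating aggregates called embryoid bodies (EBs), which were compared at day 3 between 2 WT samples and 2 samples in which the promoter of *Gm11549*, the gene of the micropeptide NEMEP, had been deleted (promoter KO). All 4 samples were of strain 129/Ola and were grown in serum medium after withdrawal of LIF, with no other treatment. The promoter KO mESCs were picked as clones after CRISPR editing and sorting, and whether different clones were used for the 2 samples is not stated in the sources used here. Effects of the deletion and differences between clones therefore cannot be told apart, and p-values measure the spread between these samples.

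Zinc that enters the cytosol through importers of the ZIP family (Slc39) is bound in large part by metallothioneins, and exporters of the ZnT family (Slc30) move it out of the cytosol, into organelles or out of the cell. The transcription factor MTF1 binds metal response elements when zinc is high and induces *Mt1*, *Mt2* and *Slc30a1*. Metallothionein genes also respond to glucocorticoids and to oxidative stress, and in the mouse embryo *Mt1* and *Mt2* are known for strong expression in the visceral endoderm.

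The values are FPKM (fragments per kilobase, normalized for the number of mapped fragments) from bulk RNA-seq. The lowest values placed the depth at about 24800000 and 22100000 fragments for WT 1 and 2 and at about 21600000 and 20200000 for promoter KO 1 and 2. Spearman's correlation across all genes was 0.980 for each pair of replicates and ran from 0.971 to 0.978 for pairs of different genotype. Where values are given in pairs, replicate 1 of a genotype comes before replicate 2. The targeted gene, *Gm11549*, measured 0.750 and 0.522 FPKM in WT, was listed at 0 in promoter KO 1 and measured 0.0659 FPKM in promoter KO 2. The promoter KO values were thus below those of WT, as labelled, but the gene was too low to be tested.

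The labels call the samples mesendoderm cells derived from mESCs. All 8 mesendoderm markers examined had values in every sample, and their FPKM summed to 777 and 1002 in WT against 148 and 314 in promoter KO. Of these markers 5 were lower in promoter KO at the threshold given below and 0 were higher. The most abundant, *T*, measured 306 and 448 FPKM in WT against 50.5 and 127 FPKM in promoter KO. *Pou5f1*, a pluripotency factor, remained at 1188 to 1545 FPKM in all 4 samples. In bulk samples, fewer cells of a type and less RNA per cell cannot be told apart.

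Genotypes were compared with limma on log2(FPKM + 1), a scale on which the log2 fold change (log2FC, promoter KO minus WT) of low genes is smaller than the log2 ratio of their FPKM. Of all genes, 11941 reached 1 FPKM in at least 2 samples and were tested, among them all 8 genes described here. A gene was called at a Benjamini-Hochberg adjusted p under 0.05 over all tested genes. In promoter KO the 3 metallothioneins were called higher, while *Mtf1* and the 4 zinc transporters were not called. The calls of the metallothioneins lay near the threshold and were lost under several other settings, given below with their values. Among all tested genes 1.68% were called higher and 1.89% lower. None of the 8 genes was called lower by limma, and 1 of them, *Slc39a1*, was lower at an unadjusted p under 0.05, a level at which 15.6% of all tested genes were lower and 15.0% higher. The promoter KO values were both higher than those of WT in 7 of the 8 genes, against 32.9% of tested genes, and both lower in 1, against 32.4%. The median log2 fold change was 0.46 for the 8 genes and 0.0042 for all tested genes. The 8 genes were chosen with earlier results of these data known, so these shares and medians are descriptions, and their difference was not tested. At a fold change above 2 with an unadjusted p under 0.05, *Mt3* and *Slc39a14* passed, as did 1.40% of tested genes, and at a fold change below 0.5 none of the 8 genes passed, against 1.63%. Without WT 2, or without promoter KO 1, limma called 0 genes in either direction, so every call given here depends on both of these samples. At an unadjusted p under 0.05 there were then 976 lower and 899 higher genes without WT 2, and 1043 and 966 without promoter KO 1. With no filter beyond a value above 0, limma also called 0 of 18215 genes, against 1982 lower and 2077 higher at an unadjusted p under 0.05.

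**Figure D1:**
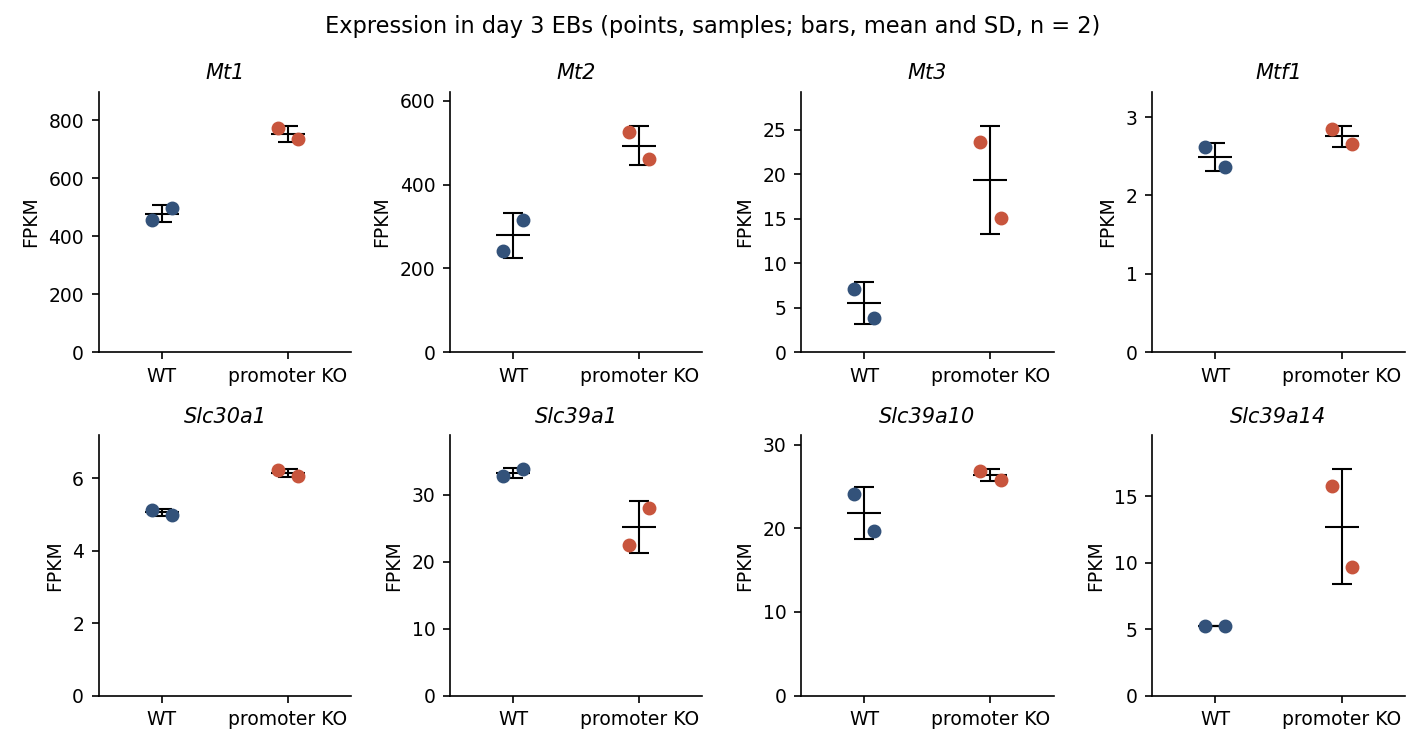
FPKM of the 8 genes in each sample of WT and promoter KO day 3 EBs, with the mean and SD of each genotype (n = 2). Both promoter KO points lie above both WT points in every panel except that of *Slc39a1*, where both lie below, and *Mt1* has the highest values, from 457 to 772 FPKM.

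The metallothioneins rose in promoter KO EBs. *Mt1*, the most abundant of them, measured 457 and 498 FPKM in WT against 772 and 734 FPKM in promoter KO. *Mt2* measured 242 and 316 FPKM in WT against 527 and 461 FPKM in promoter KO. *Mt3*, a form known mainly from the brain and less responsive to zinc, measured 7.16 and 3.81 FPKM in WT against 23.7 and 15.0 FPKM in promoter KO. For all 3 genes both promoter KO values were higher than both WT values, with no overlap. The log2 fold change was 0.66 ± 0.079 (SE) for *Mt1* (adjusted p = 0.0311), and the mean rose from 478 ± 29.5 to 753 ± 27.0 FPKM (SD, n = 2). It was 0.83 ± 0.14 for *Mt2* (adjusted p = 0.0460), from 279 ± 52.8 to 494 ± 46.8 FPKM, and 1.67 ± 0.31 for *Mt3* (adjusted p = 0.0488), from 5.48 ± 2.37 to 19.4 ± 6.09 FPKM. The last gene of the family, *Mt4*, known from stratified epithelia, was at 0.307 FPKM in promoter KO 1 and listed at 0 in the other samples.

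Each sample mattered for these calls, although no fold change turned its sign. With 1 sample left out, limma takes the lone sample of a genotype to vary like the samples of the other. The adjusted p of *Mt1* was then 0.0725 without WT 1, 0.141 without WT 2, 0.130 without promoter KO 1 and 0.0423 without promoter KO 2. That of *Mt2* was 0.0843, 0.121, 0.187 and 0.0586 in the same order, and that of *Mt3* was 0.0508, 0.210, 0.202 and 0.0524. *Mt1* thus kept its call without promoter KO 2, and *Mt2* and *Mt3* lost theirs without any 1 of the 4 samples. Without the intensity trend of limma all 3 calls were lost (adjusted p = 0.0639, 0.0710 and 0.0678 for *Mt1*, *Mt2* and *Mt3*), as they were with no filter (0.137, 0.146 and 0.147). *Mt2* and *Mt3* also lost their calls with a filter at a mean of 5 FPKM (0.0518 and 0.0557) and with centring on sample medians (0.0507 and 0.0547), and *Mt3* with a pseudocount of 0.1 (0.0514) and with quantile normalization (0.0544). With 1 sample left out, the log2 fold changes stayed between 0.59 and 0.72 for *Mt1*, 0.64 and 1.02 for *Mt2*, and 1.29 and 2.05 for *Mt3*.

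Together the 3 metallothioneins summed to 705 and 818 FPKM in WT against 1322 and 1209 FPKM in promoter KO. They made up 0.104% and 0.117% of all FPKM in WT and 0.196% and 0.178% in promoter KO. Counted from the highest value in a sample, *Mt1* ranked 193 and 176 among all genes in WT against 123 and 126 in promoter KO, and *Mt2* ranked 382 and 284 in WT against 179 and 197 in promoter KO. The ratio of *Mt1* to *Mt2* in FPKM was 1.89 and 1.58 in WT against 1.47 and 1.59 in promoter KO, with an overlap between the genotypes. Of the 8 genes *Mt3* had the fewest fragments, at about 59.7 and 28.3 fragments in WT against 172 and 102 in promoter KO, as estimated from depth and the longest annotated transcript.

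The metallothionein genes lie side by side on the plus strand of chromosome 8, with *Mt3* at chr8:94152607-94154146, *Mt2* at chr8:94172664-94173568 and *Mt1* at chr8:94179082-94180327 (GRCm38, GENCODE M21). Within 500 kb of the start of *Mt1*, 11 other genes were tested, and limma called 0 of them, while at an unadjusted p under 0.05 there were 2 higher and 2 lower. Their median log2 fold change was 0.03, and they ranged from -0.57 for *Gnao1* to 0.36 for *Nup93*, the nearest tested gene beyond *Mt1*. Of these neighbours 6 had a positive and 5 a negative fold change.

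**Figure D2:**
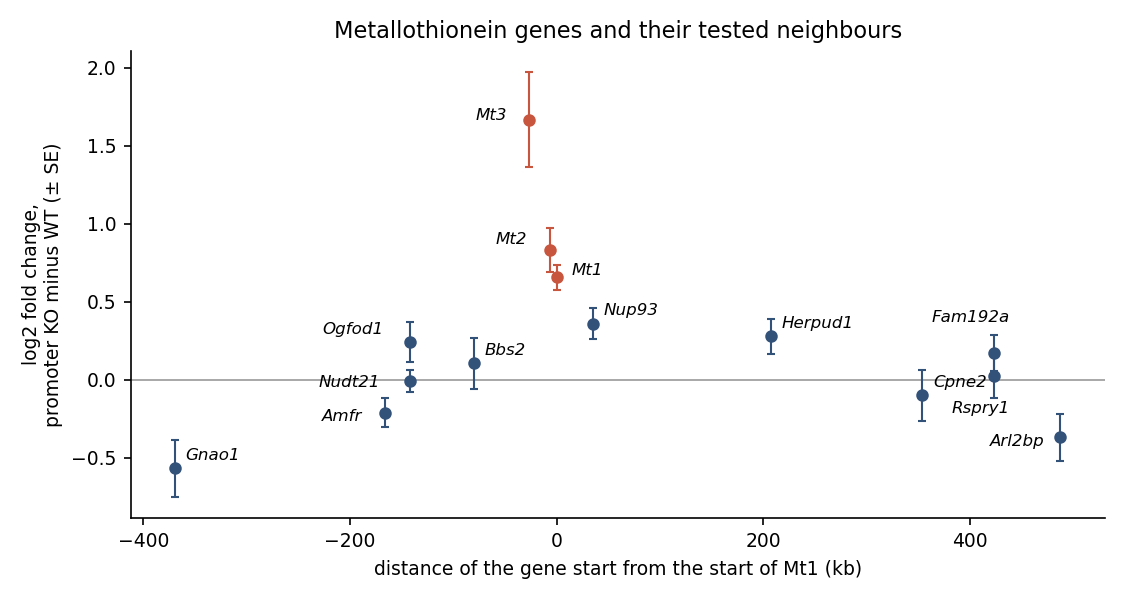
Log2 fold change (promoter KO minus WT, with SE) of tested genes within 500 kb of *Mt1*, against the distance of their start from that of *Mt1* in kb. The metallothionein genes are in orange at 0.66, 0.83 and 1.67, and the other genes are in blue between -0.57 and 0.36.

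Because the 3 metallothionein genes were called higher together, their promoters are shown with the core of the metal response element that MTF1 binds. RefSeq promoters (GRCm38.p6) run from 250 bases before to 50 bases after the start of a gene and were matched by symbol for 7 of the 8 genes, without *Slc39a14*. The core was searched as TGCACNC or TGCGCNC on both strands, and its matches are in capitals. The windows are chr8:94178839-94179138 for *Mt1*, chr8:94172368-94172667 for *Mt2*, chr8:94152357-94152656 for *Mt3* and chr1:191906531-191906830 for *Slc30a1*, a classical target of MTF1, all on the plus strand and written 5′ to 3′.
Mt1: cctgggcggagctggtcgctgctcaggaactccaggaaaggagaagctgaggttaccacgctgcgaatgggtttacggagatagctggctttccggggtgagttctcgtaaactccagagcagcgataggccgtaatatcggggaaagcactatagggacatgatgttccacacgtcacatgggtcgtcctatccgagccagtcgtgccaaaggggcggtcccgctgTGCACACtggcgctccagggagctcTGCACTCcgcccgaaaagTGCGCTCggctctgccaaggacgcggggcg
Mt2: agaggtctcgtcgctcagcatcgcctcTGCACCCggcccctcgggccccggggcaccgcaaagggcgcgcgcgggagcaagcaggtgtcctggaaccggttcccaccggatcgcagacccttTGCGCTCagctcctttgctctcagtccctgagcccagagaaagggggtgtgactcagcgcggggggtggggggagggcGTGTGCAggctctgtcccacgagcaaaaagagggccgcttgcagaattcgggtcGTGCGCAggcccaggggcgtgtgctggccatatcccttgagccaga
Mt3: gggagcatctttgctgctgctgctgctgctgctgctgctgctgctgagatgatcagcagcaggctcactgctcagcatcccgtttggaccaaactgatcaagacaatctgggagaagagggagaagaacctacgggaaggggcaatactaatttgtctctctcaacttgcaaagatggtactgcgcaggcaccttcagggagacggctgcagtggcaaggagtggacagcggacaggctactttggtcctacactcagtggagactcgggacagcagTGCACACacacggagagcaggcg
Slc30a1: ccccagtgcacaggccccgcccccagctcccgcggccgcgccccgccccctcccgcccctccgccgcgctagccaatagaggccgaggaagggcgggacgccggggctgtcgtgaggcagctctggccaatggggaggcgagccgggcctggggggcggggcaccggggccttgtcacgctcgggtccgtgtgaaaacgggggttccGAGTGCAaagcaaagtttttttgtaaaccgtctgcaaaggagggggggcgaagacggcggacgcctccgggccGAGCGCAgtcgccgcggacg

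The core occurred 3 times in the window of *Mt1*, 4 times in that of *Mt2*, once in that of *Mt3* and 2 times in that of *Slc30a1*, with no overlap between matches. It also occurred 1 time in the window of *Mt4*, which was listed at 0 FPKM in all samples but promoter KO 1. Among all 32851 promoter windows of this length, 25.7% held it at least 1 time, 7.11% at least 2 times, 1.97% at least 3 times and 0.517% at least 4 times. It was found 0 times in the windows of *Mtf1*, *Slc39a1* and *Slc39a10*. The core of the antioxidant response element, searched as TGACNNNGC on both strands, occurred 1 time each in the windows of *Mt2*, *Slc30a1* and *Slc39a1*, where it shared no base with the metal response element, and in 12.4% of all windows. A match describes letters in a window, and binding was not measured. Bases beyond these windows, also those downstream of the annotated start, were not searched. The counts, including those of 0, therefore do not describe whole promoters.

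*Mtf1*, which encodes the zinc-sensing regulator itself, measured 2.61 and 2.36 FPKM in WT against 2.85 and 2.66 FPKM in promoter KO. The promoter KO values were slightly higher, without overlap, but by little more than the distance between replicates. The log2 fold change was 0.11 ± 0.14 (SE), with a 95% confidence interval from -0.24 to 0.46 and an adjusted p of 0.640. *Mtf1* shares 721 exon bases with *1110065P20Rik* on the opposite strand, which measured 49.5 and 54.5 FPKM in WT against 39.1 and 36.9 FPKM in promoter KO. Whether reads were counted by strand is not given in the sources used here, so reads of this overlap cannot be assigned to either gene.

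Of 7 other genes described as MTF1 targets, all were tested, limma called 0 higher and 1 lower (1 and 1 at an unadjusted p under 0.05). Their median log2 fold change was -0.12. The gene called lower was *Ndrg1*, which is also known as a hypoxia-induced gene and measured 43.4 and 47.8 FPKM in WT against 7.12 and 14.0 FPKM in promoter KO (log2FC -2.08, adjusted p = 0.0371). It lost its call without WT 1 (adjusted p = 0.0725), WT 2 (0.192) or promoter KO 1 (0.0676), and without the trend (0.0620). The most abundant of the list, *Sepw1*, which encodes a selenoprotein, measured 145 and 167 FPKM in WT against 137 and 193 FPKM in promoter KO. Its genotypes overlapped (log2FC 0.07, adjusted p = 0.809).

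Among the exporters, *Slc30a1*, which exports zinc at the plasma membrane, measured 5.13 and 4.98 FPKM in WT against 6.21 and 6.07 FPKM in promoter KO. The promoter KO samples were both above the WT samples, and the replicates of each genotype lay close together. The log2 fold change was 0.24 ± 0.13 (SE, adjusted p = 0.251), with a confidence interval from -0.071 to 0.55. *Slc30a1* shares 468 exon bases with *1700034H15Rik* on the opposite strand, which stayed between 0.128 and 0.176 FPKM in all samples.

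Of the other 9 exporters in the files, 7 were tested, and limma called 0 higher and 1 lower (0 and 2 at an unadjusted p under 0.05), with a median log2 fold change of 0.03. The exporter called lower was *Slc30a3*, known for loading zinc into synaptic vesicles. It measured 12.9 and 12.0 FPKM in WT against 3.62 and 4.30 FPKM in promoter KO. The genotypes were far apart relative to the distance between replicates, and the log2 fold change was -1.44 ± 0.14 (SE, adjusted p = 0.0224). The call was kept without WT 1 (adjusted p = 0.0476) and without promoter KO 2 (0.0351), and was lost without WT 2 (0.119) and without promoter KO 1 (0.103). The most abundant of these exporters by the mean of all samples, *Slc30a9*, known for mitochondrial zinc, measured 23.5 and 26.4 FPKM in WT against 15.8 and 18.7 FPKM in promoter KO (log2FC -0.51, adjusted p = 0.0685). *Slc30a5*, named after its values were seen, was at 20.6 and 20.9 FPKM and thus higher than *Slc30a9* in both promoter KO samples. The highest log2 fold change of these exporters was 0.20, for *Slc30a2*, whose genotypes overlapped (adjusted p = 0.551). *Slc30a8*, known from insulin granules, was listed at 0 in every sample. The FPKM of all 10 exporters summed to 82.7 and 81.8 in WT against 67.3 and 68.9 in promoter KO.

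Among the importers, *Slc39a14*, which carries zinc and also iron and manganese into cells, had the largest log2 fold change in size of those tested. It measured 5.25 and 5.23 FPKM in WT against 15.8 and 9.68 FPKM in promoter KO. The WT samples were nearly equal, and both promoter KO samples were higher but far apart. The log2 fold change was 1.10 ± 0.22 (SE), with a confidence interval from 0.56 to 1.64, and its adjusted p of 0.0543 missed the threshold. With replicate number as a block limma called *Slc39a14* higher (adjusted p = 0.0296), although same-numbered samples did not deviate together, as given below. Without promoter KO 2, the lower of the promoter KO samples, the log2 fold change was 1.43 with an adjusted p of 0.0360, and without promoter KO 1 it was 0.78 with an adjusted p of 0.171. Without WT 1 and without WT 2 the adjusted p was 0.125 and 0.245.

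*Slc39a1*, a widely expressed importer, measured 32.7 and 33.8 FPKM in WT against 22.5 and 28.0 FPKM in promoter KO. Of the 8 genes it was the only one with both promoter KO samples below both WT samples. The log2 fold change was -0.39 ± 0.13 (SE, adjusted p = 0.106). A pseudogene, *Slc39a1-ps*, has at least 95% identity to it over at least 200 bases. This symbol was not among the gene rows, but reads could still have been split between the copies in mapping. *Slc39a10*, another plasma membrane importer, measured 24.1 and 19.7 FPKM in WT against 26.8 and 25.8 FPKM in promoter KO. The genotypes did not overlap, but the WT samples were farther apart than WT 1 was from either promoter KO sample (log2FC 0.26 ± 0.12, adjusted p = 0.205).

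Of the other 11 importers, 8 were tested and limma called 0 in either direction (at an unadjusted p under 0.05, 1 higher and 2 lower), with a median log2 fold change of 0.08. The most abundant, *Slc39a7*, which releases zinc from the endoplasmic reticulum and Golgi, measured 103 and 101 FPKM in WT against 116 and 107 FPKM in promoter KO (log2FC 0.13, adjusted p = 0.327). The lowest log2 fold change was that of *Slc39a3*, at 2.30 and 2.47 FPKM in WT against 0.968 and 1.25 FPKM in promoter KO (-0.68, adjusted p = 0.0640). The highest was that of *Slc39a9*, at 5.93 and 5.23 FPKM in WT against 7.30 and 7.20 FPKM in promoter KO (0.33, adjusted p = 0.156). All 14 importers summed to 209 and 207 FPKM in WT against 229 and 215 FPKM in promoter KO. Over both families 19 of 24 transporters were tested. Of these, 15 had a log2 fold change of less than 0.5 in size, a bound not counted over all tested genes. The genotypes overlapped in 6 of the 19, beside 4142 of all 11941 tested genes. These counts are descriptions.

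**Figure D3:**
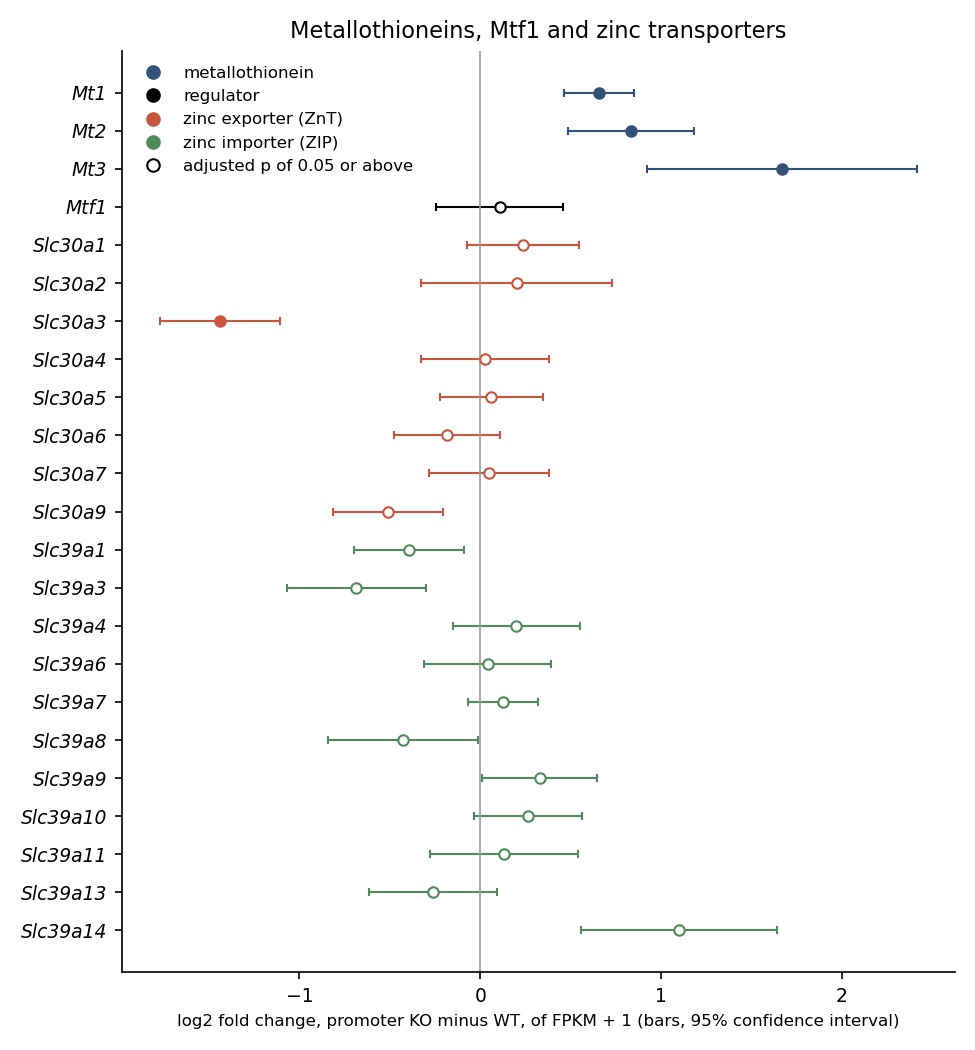
Log2 fold change (promoter KO minus WT, on log2(FPKM + 1)) with its 95% confidence interval for the metallothioneins, *Mtf1* and every tested zinc transporter, with filled points for genes called at an adjusted p under 0.05. The 3 metallothioneins are filled to the right of 0, *Slc30a3* is filled to the left at -1.44, and *Slc39a14* at 1.10 is open.

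In order of mean FPKM in WT, the 8 genes ran from *Mt1* (478 ± 29.5, SD, n = 2) and *Mt2* (279 ± 52.8) to *Slc39a1* (33.3 ± 0.734), *Slc39a10* (21.9 ± 3.12), *Mt3* (5.48 ± 2.37), *Slc39a14* (5.24 ± 0.0161), *Slc30a1* (5.05 ± 0.105) and *Mtf1* (2.49 ± 0.177). In WT, *Mt3* did not differ beyond its spread from *Slc39a14* or *Slc30a1*. In promoter KO, *Slc39a10* (26.3 ± 0.712) and *Slc39a1* (25.2 ± 3.89) did not differ beyond their spread, and *Mt3* (19.4 ± 6.09), whose values overlapped those of *Slc39a1* and of *Slc39a14* (12.7 ± 4.30), had a mean between theirs. *Slc30a1* (6.14 ± 0.0995) and *Mtf1* (2.76 ± 0.132) were the lowest.

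**Figure D4:**
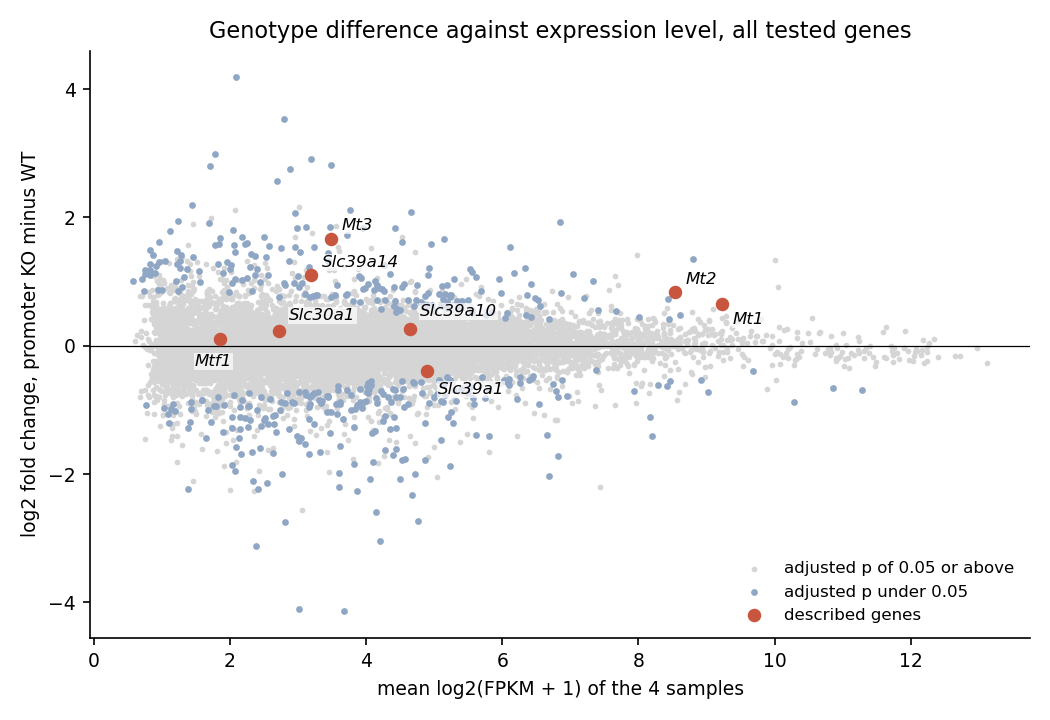
Log2 fold change (promoter KO minus WT) against mean log2(FPKM + 1) over the 4 samples for all 11941 tested genes, with the 8 genes in orange and genes called at an adjusted p under 0.05 in blue. *Mt1* and *Mt2* lie at high expression, and *Mt3* and *Slc39a14* lie at lower expression with fold changes of 1.67 and 1.10.

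The transcripts of the metallothioneins are short, with longest annotated transcripts of 1085 bases for *Mt1*, 511 for *Mt2* and 536 for *Mt3*. The longest transcript of *Mt1* is annotated with 1 exon, and its shortest has 549 bases. Genes were grouped by their longest annotated transcript, so *Mt1* may belong with either of the groups below. Among the 197 tested genes with at most 700 bases, the median log2 fold change was -0.091, and 3.05% were called higher and 2.54% lower. Among the 1196 genes of over 700 and up to 1500 bases, the median was -0.046, and 2.26% were called higher and 3.76% lower. *Mt2* also shares 432 exon bases with an antisense gene, *Gm45774*, which was not analysed here, so reads of this overlap cannot be assigned without the strand setting.

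The genes whose profile over the 4 samples was most like that of *Mt1*, by the root mean square difference of centred log2(FPKM + 1) among 6531 tested genes with a mean of at least 10 FPKM, were *Tmem5*, *Pmm2*, *Pdpn*, *Amd2* and *Zfp532*, at 0.028 to 0.056. *Tmem5* measured 15.4 and 17.0 FPKM in WT against 25.5 and 25.4 FPKM in promoter KO. Those most like *Mt2* were *Zfp57*, *Mycn*, *Ckb*, *Ckap2* and *Crtap*, at 0.033 to 0.10. *Zfp57* measured 19.1 and 24.4 FPKM in WT against 43.1 and 35.5 FPKM in promoter KO, and *Mycn* 68.9 and 87.7 FPKM in WT against 164 and 121 FPKM in promoter KO.

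Other genes of metal and stress responses were described as lists. Of 15 genes of copper and iron handling, all were tested, limma called 0 in either direction (at an unadjusted p under 0.05, 2 higher and 2 lower), and the median log2 fold change was -0.013. The most abundant, *Sod1*, the cytosolic superoxide dismutase that binds copper and zinc, measured 819 and 799 FPKM in WT against 935 and 860 FPKM in promoter KO (log2FC 0.15, adjusted p = 0.240). Of 11 heat shock genes, all were tested and limma called 0, but at an unadjusted p under 0.05 there were 6 higher and 0 lower, beside the 15.0% and 15.6% of all tested genes, with 10 positive fold changes and a median of 0.39. The most abundant of these, the constitutive chaperone gene *Hspa8*, measured 976 and 944 FPKM in WT against 1239 and 1128 FPKM in promoter KO (log2FC 0.30, adjusted p = 0.0768). The heat shock genes summed to 3511 and 3291 FPKM in WT against 4656 and 3953 FPKM in promoter KO.

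Of 10 genes of the oxidative stress response driven by NRF2, 8 were tested, and limma called 2 higher and 0 lower (5 and 0 at an unadjusted p under 0.05), with a median log2 fold change of 0.46. *Nqo1*, a quinone reductase, measured 1.72 and 1.73 FPKM in WT against 9.32 and 5.60 FPKM in promoter KO (log2FC 1.60, adjusted p = 0.0379). *Srxn1*, which restores oxidized peroxiredoxins, measured 7.70 and 7.48 FPKM in WT against 14.2 and 12.9 FPKM in promoter KO (log2FC 0.76, adjusted p = 0.0412). For both genes the genotypes did not overlap. The call of *Nqo1* was lost without WT 1 (adjusted p = 0.0815), WT 2 (0.197) or promoter KO 1 (0.129), and that of *Srxn1* also without promoter KO 2 (0.0863, 0.204, 0.178 and 0.0560). Without the trend both calls were lost (0.0601 and 0.0605). The most abundant gene, *Txnrd1*, a thioredoxin reductase, measured 99.2 and 87.8 FPKM in WT against 131 and 117 FPKM in promoter KO (log2FC 0.40, adjusted p = 0.0713).

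Of 8 genes of the glucocorticoid response, 7 were tested, and limma called 0 higher and 1 lower (2 and 1 at an unadjusted p under 0.05), with a median log2 fold change of 0.0047. *Tsc22d3*, a classical glucocorticoid-induced gene, measured 10.9 and 11.8 FPKM in WT against 5.16 and 6.09 FPKM in promoter KO (log2FC -0.90, adjusted p = 0.0389). Its call was lost without WT 1 (adjusted p = 0.0789), WT 2 (0.204) or promoter KO 1 (0.161), and without the trend (0.0563). *Sgk1*, the most abundant of the list, measured 71.2 and 79.7 FPKM in WT against 118 and 103 FPKM in promoter KO (log2FC 0.54, adjusted p = 0.0509). The part of any of these responses in the metallothionein values was not tested.

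Markers of other cell types moved with the genotype as well, and their values stand beside those of the metallothioneins. Of 12 visceral endoderm markers, 10 were tested, 6 were called higher in promoter KO and 0 lower, with a median log2 fold change of 1.53. Of those tested, *Apob*, *Cubn* and *Sox7* reached 1 FPKM only in promoter KO samples. *Ttr*, *Afp* and *Apoa1* reached it in 1 WT sample each, and so also needed promoter KO samples to pass. The filter thus admitted these genes through promoter KO values, and their direction gives no support. The count and the median include them. The FPKM of all 12 markers summed to 36.7 and 45.0 in WT against 144 and 113 in promoter KO. The most abundant was *Rhox5*, at 18.7 and 18.8 FPKM in WT against 88.7 and 42.9 FPKM in promoter KO, and none of the markers was listed at 0 in all samples. Of the defining genes, *Amn*, an endocytic receptor subunit, measured 2.33 and 1.14 FPKM in WT against 14.4 and 15.1 FPKM in promoter KO (log2FC 2.56, adjusted p = 0.0208). *Ttr*, a secreted carrier of thyroid hormone, measured 2.18 and 0.996 FPKM in WT against 8.14 and 6.32 FPKM in promoter KO (log2FC 1.70, adjusted p = 0.0389). The others called were *Cubn*, *Dab2*, *Rhox5* and *Sox7*. Of these, *Cubn* (0.362 and 0.0686 FPKM in WT) and *Sox7* (0.289 and 0.221 FPKM in WT) passed the filter only through promoter KO. *Ttr*, with 0.996 FPKM in WT 2, also needed promoter KO samples to pass, so its call gives no support. *Afp* and *Apoa1* remained under 4 FPKM in every sample and were not called, nor was *Apob*. *Gata4*, also not called, measured 5.02 and 19.4 FPKM in WT against 9.68 and 13.8 FPKM in promoter KO, with an overlap.

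Of 8 parietal endoderm markers, 7 were tested, 5 were called higher and 0 lower, with a median log2 fold change of 1.83. *Plat*, which was not called, passed the filter only through promoter KO (0.412 and 0.501 against 1.37 and 2.45 FPKM). *Srgn*, which was called, also needed promoter KO samples to pass (2.33 and 0.254 against 20.8 and 24.9 FPKM). The direction of both genes thus gives no support. The median includes both, and the count of genes called includes *Srgn*. All 8 markers summed to 101 and 124 FPKM in WT against 254 and 319 FPKM in promoter KO, and none was listed at 0 in all samples. The genes called were *Sparc*, the most abundant at 46.0 and 59.3 FPKM in WT against 111 and 134 FPKM in promoter KO, with *Col4a1*, *Col4a2*, *Lama1* and *Srgn*.

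The mesendoderm genes called lower were *Evx1*, *Gsc*, *Lhx1*, *Mesp1* and *Mixl1*. Of 4 definitive endoderm markers 3 were called lower, *Cer1*, *Cxcr4* and *Hhex*, and all 4 summed to 62.6 and 62.8 FPKM in WT against 19.8 and 24.9 FPKM in promoter KO. Of 10 pluripotency genes 1 was called higher, *Utf1*, at 262 and 297 FPKM in WT against 828 and 617 FPKM in promoter KO (log2FC 1.35, adjusted p = 0.0275), and 0 were called lower. *Nanog* went the other way, at 140 and 113 FPKM in WT against 94.1 and 98.7 FPKM in promoter KO (log2FC -0.38, adjusted p = 0.0974). The pluripotency genes summed to 2037 and 1798 FPKM in WT against 2823 and 2494 FPKM in promoter KO. Of 4 neuroectoderm markers only *Nes* reached the filter, and it was not called (log2FC -1.10, adjusted p = 0.0831). The other markers, *Pax3*, *Pax6* and *Sox1*, were higher in both promoter KO samples than in WT but stayed between 0.0142 and 0.565 FPKM. Of the 20 markers called over all these lists, 12 were still called without WT 1, 15 without promoter KO 2, and 0 without WT 2 or without promoter KO 1. Without the trend 8 were still called (*Amn*, *Cer1*, *Col4a1*, *Col4a2*, *Cubn*, *Lama1*, *Lhx1* and *Sox7*), and with no filter 0. *Cubn* and *Sox7* had passed the main filter only through promoter KO, and *Ttr* and *Srgn* also needed promoter KO samples to pass it. *Mesp1* and *Cxcr4* likewise needed WT samples. Calls of these genes that were kept in any setting give no support. With a filter at a mean of 5 FPKM 16 of the 20 were tested and 12 still called. With centring on sample medians 15 of the 20 were, and with a pseudocount of 0.1 or with quantile normalization 16 were. The part of these shifts in cell type markers in the metallothionein and zinc transporter values was not tested.

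**Figure D5:**
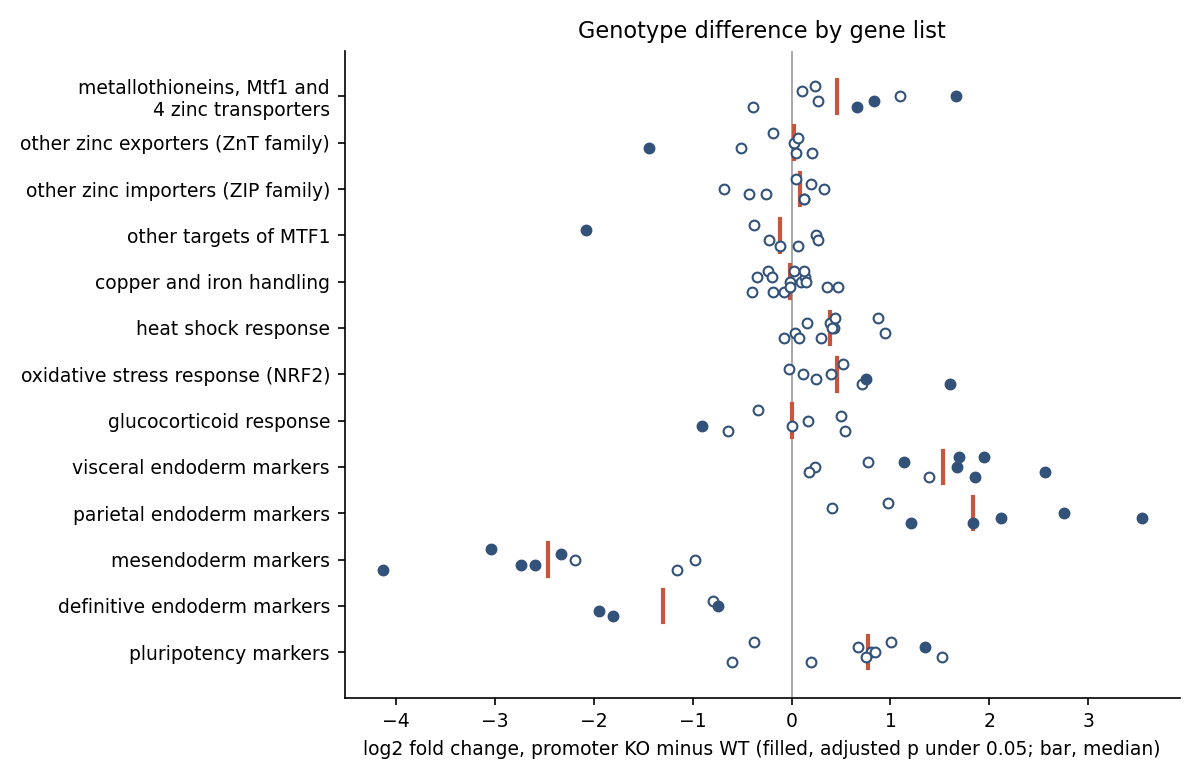
Log2 fold change (promoter KO minus WT) of each tested gene by list, with the median of each list as an orange bar and filled points for genes called at an adjusted p under 0.05. The medians of the other zinc exporters and importers are 0.03 and 0.08, and those of the visceral and parietal endoderm markers are 1.53 and 1.83. Both endoderm medians include genes that needed promoter KO samples to pass the filter.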

How the data were processed

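The sample labels gave the genotypes. The deposited values were taken as FPKM, already scaled by the authors for library size and transcript length. The study's methods describe mapping with TopHat to mm10 and quantification with Cufflinks against GENCODE M4, calling the unit RPKM, whereas the submitters' processing notes list HISAT2 2.1.0, Cufflinks and Cuffnorm. The 11941 genes that reached 1 FPKM in 2 or more samples were tested on log2(FPKM + 1) with limma 3.58.1 in R 4.3.3 (lmFit, eBayes with a trend, 3.99 prior degrees of freedom) for genotype, with Benjamini-Hochberg adjustment. With 2 samples against 2, an exact permutation test cannot give a two-sided p below 0.333. Members and gene lists were chosen with earlier results of these data known. Every member was named, and of each list the genes called and the most abundant gene, with the extreme fold changes of the transporter lists. Markers were named to check cell types, and neighbours of *Mt1* and overlapping genes by position. Depth was estimated at an assumed fragment length of 200 bases. Near-identical copies were found with BLAST 2.17.0. Python 3.11.15, numpy 2.4.6, pandas 2.3.3 and matplotlib 3.10.9 were used.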

Additional observations from a re-analysis of the deposited data

How the results depend on the processing

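The calls of *Mt1*, *Mt2* and *Mt3* lay near the threshold, and which of them passed depended on the settings. Of 11941 genes 226 were called lower and 201 higher, with 3 of the 8 described genes higher. A filter at a mean of 5 FPKM gave 108 lower and 95 higher, with 1 of the 8 genes higher (*Mt1*), and *Mtf1* was then not tested. Without the trend limma called 27 lower and 55 higher, with 0 of the 8 genes. With no filter beyond a value above 0, 18215 genes were tested and limma called 0 lower, 0 higher and 0 of the 8 genes, against 1982 lower, 2077 higher and 4 of the 8 genes higher at an unadjusted p under 0.05. Centring on sample medians gave 126 lower and 157 higher, with 1 of the 8 genes (*Mt1*). A pseudocount of 0.1 and quantile normalization each left 2 of the 8 genes called, *Mt1* and *Mt2*. The cause of these differences was not tested. Leaving out 1 sample gave from 0 to 248 genes lower, from 0 to 238 higher and from 0 to 2 of the 8 genes higher, the latter *Mt1* and *Slc39a14* without promoter KO 2. At an unadjusted p under 0.05, 4 or 5 of the 8 genes were higher in each of these fits, beside 15.0% of all tested genes with no sample left out. Over all alternatives the adjusted p ranged from 0.0137 to 0.141 for *Mt1*, 0.0276 to 0.187 for *Mt2*, 0.00787 to 0.210 for *Mt3*, 0.0296 to 0.245 for *Slc39a14* and 0.0111 to 0.133 for *Slc30a3*. None of the 8 genes was called lower by limma under any alternative. The labels number the replicates 1 and 2 in both genotypes, but same-numbered samples did not deviate together (r = 0.035 across genes). With the replicate block limma called 667 genes lower and 535 higher, and 4 of the 8 genes higher, *Slc39a14* added. For the 8 genes and 25 called genes of the lists, 0 of the 264 fold changes that an alternative could alter reversed their sign. The other 126 were those of the replicate block, the 2 other filters and the fit without the trend, which leave the fold change as it is. In the 357 alternative fits with an adjusted p, a call was lost in 149 and gained in 2.

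With 2 samples a genotype, small differences were not resolved: the confidence interval of *Mtf1* ran from -0.24 to 0.46 and that of *Slc30a1* from -0.071 to 0.55 (log2). *Mt3* rested on about 28.3 to 172 fragments a sample.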
